A study of Mus musculus with 9 samples.

Results

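The Frizzled receptors are the 10 mouse genes Fzd1 to Fzd10, taken by gene symbol out of 52609 genes to which the deposited transcript values were summed. Transcript levels were measured by RNA sequencing (TruSeq stranded mRNA libraries) in 9 libraries of mouse lines described as epiblast stem cells, which are derived from the epiblast, the pluripotent tissue of the early post-implantation embryo, and were kept on gelatin with inactivated embryonic fibroblasts as feeder cells. The medium of every group held FGF2 (10 ng/mL) and Activin A (20 ng/mL). The groups were a control line without inhibitor (control, n = 2), a line labelled as lacking Dkk1, which encodes a secreted inhibitor of Wnt receptors (Dkk1_KO, n = 3), a Wnt-inhibited line kept in IWP2 at 5 µM (IWP2, n = 2), and a line derived with IWP2 and then grown without it (IWP2_removed, n = 2). IWP2 blocks Porcupine, the acyltransferase that Wnt proteins need for their lipid modification and secretion. The labels name each group as a line and do not say whether its replicates are separate cultures, so the p-values below measure the spread between libraries, which may be technical.

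Frizzled proteins are receptors with a span of membrane helices and an extracellular cysteine-rich domain that binds the lipid of Wnt ligands. With the co-receptors Lrp5 or Lrp6 they recruit Dishevelled and stabilise beta-catenin. With partners such as Ror2, Ryk, Vangl2 and the Celsr cadherins they act in planar cell polarity and other beta-catenin-independent pathways. In the mouse embryo Wnt signalling through these receptors is needed to form the primitive streak, and Dkk1 restrains it at the anterior side by binding Lrp5 and Lrp6.

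Library totals ran from 10849490 to 17892751 estimated reads. The level of Dkk1 was 6.77 to 8.95 CPM (reads scaled to a common library total, here by TMM) in control, 0.701 to 1.13 in Dkk1_KO, 3.45 to 5.84 in IWP2_removed and 0.348 to 2.89 in IWP2, so 1 IWP2 library lay below the Dkk1_KO libraries. Defining markers did not all match the epiblast label in Dkk1_KO. Pou5f1, a core pluripotency factor, was at 1.14 to 1.70 CPM there against 332 to 1113 CPM in the other groups. Nanog was at 1.84 to 2.17 CPM against 126 to 295. Of 10 epiblast markers 6 were lower in Dkk1_KO than in control and 3 higher. The higher ones were Utf1 (165 against 8.33 CPM), Dnmt3b (459.6 against 139 CPM) and Pou3f1 (82.5 against 14.3 CPM). Sox2 was at 97.9 against 113 CPM and was not called. Of 10 trophoblast markers 9 were higher in Dkk1_KO than in control, with a summed level of 867 to 928 TPM (a relative level scaled by transcript length) against 8.96 to 22.2. Elf5 was at 303 to 313 CPM in Dkk1_KO and at most 0.251 CPM elsewhere. The 12 fibroblast markers summed to 649.6 to 669 TPM in Dkk1_KO, 1417 to 1888 in control, 733 to 1357 in IWP2 and 1050 to 1635 in IWP2_removed. The part of these differences in any Frizzled result was not tested, and in bulk RNA fewer cells of a type and less RNA per cell cannot be told apart. The Dkk1_KO libraries were also closer to each other (r of log2 CPM across genes 0.996 to 0.997) than the replicates of the other groups (0.964 to 0.982).

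The 10 genes lie on 7 chromosomes of mouse genome GRCm38 (GENCODE vM21). Of these, 7 have 1 annotated transcript, and 57 of their 63 library values were whole numbers within 0.001, so few of their reads were split with other transcripts. Fzd1 (chr5:4753839-4758035), Fzd2 (chr11:102604396-102608058) and Fzd7 (chr1:59482424-59486955) are single-exon genes and the closest relatives: 82.0% of aligned coding bases were identical between Fzd1 and Fzd2, and 78.6% between Fzd7 and either. Fzd5 (chr1:64730558-64737751, 2 exons) and Fzd8 (chr18:9212163-9218136, 1 exon) shared 76.3%. Fzd9 (chr5:135248938-135251230) and Fzd10 (chr5:128600844-128604093), both of 1 exon, shared 71.6%. Fzd4 (chr7:89404355-89413134, 2 exons) was closest to Fzd1 and Fzd10, at 67.2% with each. Fzd3 (chr14:65192449-65262463) and Fzd6 (chr15:39006034-39038188), both of 7 exons, shared 64.3% and had coding GC contents of 46.3% and 49.0%, against 51.8% to 64.9% in the other genes.

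**Figure D1:**
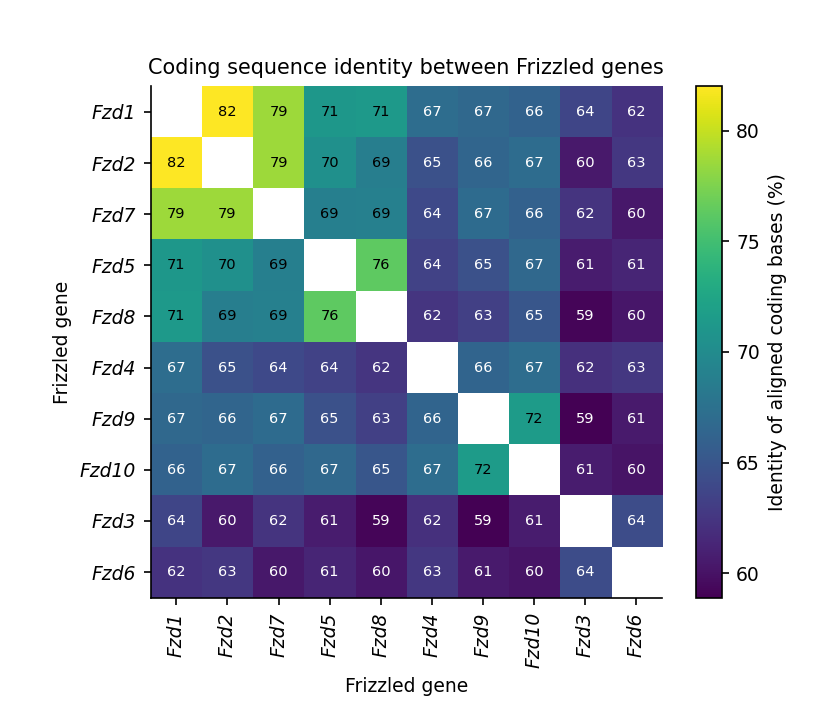
Identity of aligned coding bases between each pair of Frizzled genes, in percent, from the main GENCODE transcript of each gene. The highest values were those of Fzd1 and Fzd2 (82.0%), Fzd7 with either (78.6%) and Fzd5 and Fzd8 (76.3%). Fzd9 and Fzd10 were closest to each other at 71.6%, a value near that of Fzd1 and Fzd8 (71.3%).

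Promoters of 6 of the 10 genes were in the RefSeq table (GRCm38.p6), each spanning 250 bases before to 50 bases after the RefSeq start on the gene's strand. Those of Fzd10 and Fzd9 and of Fzd1 and Fzd7 are shown because each pair joins a gene that was lower in Dkk1_KO to a close relative that was not called.
Fzd10, chr5:128600856-128601155, plus strand: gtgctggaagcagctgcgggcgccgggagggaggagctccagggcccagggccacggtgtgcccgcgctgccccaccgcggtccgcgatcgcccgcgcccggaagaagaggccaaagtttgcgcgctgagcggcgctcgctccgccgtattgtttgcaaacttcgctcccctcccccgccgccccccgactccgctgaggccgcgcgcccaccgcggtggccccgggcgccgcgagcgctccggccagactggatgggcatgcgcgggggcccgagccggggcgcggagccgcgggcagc
Fzd9, chr5:135250998-135251297, minus strand: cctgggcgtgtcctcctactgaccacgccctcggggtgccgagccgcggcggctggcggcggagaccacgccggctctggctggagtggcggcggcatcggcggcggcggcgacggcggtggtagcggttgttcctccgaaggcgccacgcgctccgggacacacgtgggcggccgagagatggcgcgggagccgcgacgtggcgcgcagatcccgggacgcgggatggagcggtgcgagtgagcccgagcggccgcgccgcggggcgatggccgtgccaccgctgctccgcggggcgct
Fzd1, chr5:4758167-4758466, minus strand: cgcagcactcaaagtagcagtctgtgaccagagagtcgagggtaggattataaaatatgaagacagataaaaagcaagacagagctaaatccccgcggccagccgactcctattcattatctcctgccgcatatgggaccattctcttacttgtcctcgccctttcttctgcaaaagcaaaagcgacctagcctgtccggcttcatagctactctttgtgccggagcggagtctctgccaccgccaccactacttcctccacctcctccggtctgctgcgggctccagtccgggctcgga
Fzd7, chr1:59481897-59482196, plus strand: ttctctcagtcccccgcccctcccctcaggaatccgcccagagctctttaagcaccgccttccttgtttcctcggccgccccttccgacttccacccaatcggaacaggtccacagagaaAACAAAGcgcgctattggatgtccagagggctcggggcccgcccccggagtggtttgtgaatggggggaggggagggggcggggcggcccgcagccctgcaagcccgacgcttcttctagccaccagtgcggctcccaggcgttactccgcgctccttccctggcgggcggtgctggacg
Capitals mark a match to the core of the TCF/LEF motif (the letters CTTTG and then AA, AT, TA or TT, searched on both strands, with no other motif searched), bound by the factors that carry beta-catenin to DNA. It occurred once, 130 bases before the Fzd7 start on the opposite strand, and not in the windows of Fzd1, Fzd4, Fzd5, Fzd9 and Fzd10. Of all 32851 promoters of 300 bases, 16.9% held such a core. The CpG count was 45 in Fzd10, 53 in Fzd9, 16 in Fzd1 and 24 in Fzd7, against a median of 7 and quartiles of 3 and 20 over all promoters. RefSeq and GENCODE starts differed by 262 bases for Fzd10, 183 for Fzd9, 181 for Fzd1 and 277 for Fzd7, so the windows need not hold the start used in these cells.

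In control the most abundant Frizzled transcripts per length were Fzd2 (20.4 ± 0.698 TPM, SD, n = 2), Fzd7 (15.2 ± 0.762 TPM), Fzd10 (11.2 ± 1.08 TPM) and Fzd1 (10.7 ± 0.662 TPM). In Dkk1_KO Fzd7 was the most abundant at 9.92 ± 0.0362 TPM (SD, n = 3), and Fzd2, Fzd10 and Fzd1 were at 1.37, 0.941 and 2.65 TPM. The summed TPM of the 10 genes was 78.6 and 79.6 in the control libraries, 24.1, 23.1 and 25.5 in Dkk1_KO, 72.8 and 55.6 in IWP2, and 60.4 and 64.7 in IWP2_removed. The Dkk1_KO mean was thus 30.6% of that of control, and the other means were 81.2% (IWP2) and 79.1% (IWP2_removed). Fzd7 made up 19.2% of the pool in control and 41.0% in Dkk1_KO, whereas Fzd2 made up 25.7% and 5.69%. Counting protein-coding transcripts only, Fzd7 held 42.9% to 44.7% of the pool in the Dkk1_KO libraries and 15.6% to 21.5% in the other 6.

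**Figure D2:**
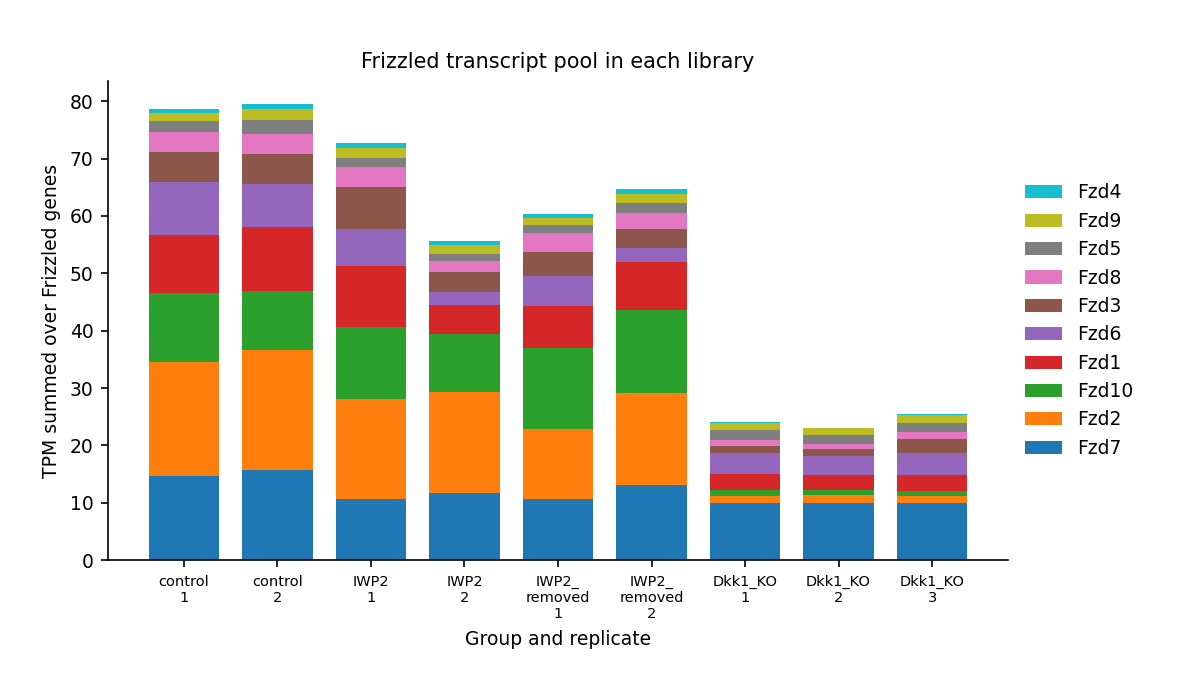
Stacked bars give the TPM of each Frizzled gene in each library, grouped by line with the replicate number below. The 3 Dkk1_KO bars reach 23.1 to 25.5 TPM with Fzd7 as the largest segment, while the other bars reach 55.6 to 79.6 TPM.

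Against control, 7 of the 10 Frizzled genes were lower in Dkk1_KO and 0 were higher. They were Fzd1, Fzd2, Fzd3, Fzd4, Fzd6, Fzd8 and Fzd10. A gene was called where the Benjamini-Hochberg adjusted p of edgeR's quasi-likelihood test over 18096 genes was below 0.05, and 23.0% of all genes were called lower and 21.3% higher. The median log2 fold change was -1.62 over the Frizzled genes and -0.03 over all genes tested. None of the 10 was above 0 in this comparison, and at an unadjusted p below 0.05, by DESeq2 and by limma on TPM the number higher was also 0. In the same comparison 6 of 10 epiblast markers were lower and 3 higher, 9 of 12 fibroblast markers lower and 0 higher, 4 of 8 neural ectoderm markers lower and 0 higher, 2 of 6 tested primitive streak and mesoderm markers lower and 1 higher, and 3 of 5 tested endoderm markers lower and 1 higher, and their part in the Frizzled differences was not tested.

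Among the Fzd1, Fzd2 and Fzd7 relatives, which bind several Wnt ligands and signal to beta-catenin, the log2 fold changes ran from -3.66 (Fzd2) to -0.39 (Fzd7). Fzd2 was at 89.3 and 111 CPM in control and at 7.85, 8.35 and 7.50 CPM in Dkk1_KO. Its log2 fold change was -3.66 ± 0.19 (SE; adjusted p = 3.75e-06, edgeR), a level 12.7-fold lower. Fzd2 was the Frizzled gene with the largest decrease, and the groups were far apart. Fzd1 was at 53.1 and 68.4 CPM in control and at 18.8, 16.3 and 17.7 CPM in Dkk1_KO, and fell by 1.79 on the log2 scale (SE 0.24; edgeR adjusted p = 0.000450). Fzd7, a receptor widely expressed in pluripotent cells, was at 82.5 and 104 CPM in control and at 71.5, 71.7 and 71.5 CPM in Dkk1_KO. The Fzd7 libraries did not overlap, but the log2 fold change of -0.39 (95% interval -0.79 to 0.02; edgeR adjusted p = 0.108) was not called. Fzd7 was called lower with limma on log2(TPM + 1) (log2 fold change -0.56, adjusted p = 0.0188) and with only these 2 groups in the edgeR model (-0.40, adjusted p = 0.0169). Over all genes, limma called 3937 of 18096 lower and that edgeR model 5141 of 16848.

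Fzd10, which signals through beta-catenin and in the embryo marks the streak and the dorsal neural tube, was at 47.3 and 48.7 CPM in control and at 5.18, 4.56 and 4.53 CPM in Dkk1_KO. The log2 fold change was -3.33 ± 0.13 (SE; edgeR adjusted p = 1.19e-06), a level 10.1-fold lower. Its closest relative Fzd9 was low in every library, at 3.56 and 6.15 CPM in control and 4.41, 4.18 and 5.09 CPM in Dkk1_KO. The Fzd9 groups overlapped, and the interval of its log2 fold change ran from -0.81 to 0.62 (edgeR adjusted p = 0.822), which leaves room for a change in either direction. Fzd4, the receptor of norrin as well as of Wnts, was at 6.41 and 8.89 CPM in control and fell to 1.40, 0.911 and 1.06 CPM, or 20, 12 and 15 estimated reads. Its log2 fold change was -2.76 ± 0.28 (SE; edgeR adjusted p = 0.000115).

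Fzd5 and Fzd8, close relatives that both signal to beta-catenin, were set apart in the same way. Fzd8 was at 13.9 and 17.0 CPM in control and at 6.03, 4.63 and 6.30 CPM in Dkk1_KO (log2 fold change -1.45 ± 0.23, SE; edgeR adjusted p = 0.00133). With the 3 Dkk1_KO libraries averaged to 1 the edgeR call of Fzd8 was lost (adjusted p = 0.0580). Fzd5 was at 17.1 and 24.4 CPM in control and at 17.5, 17.0 and 17.5 CPM in Dkk1_KO. The Dkk1_KO libraries of Fzd5 lay at or near the lower control library, the groups overlapped, and its log2 fold change of -0.26 (95% interval -0.69 to 0.17; edgeR adjusted p = 0.298) was not called.

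Fzd3 and Fzd6 are the receptors best known from planar cell polarity, where they act together in neural tube closure. Fzd3 was at 66.6 and 80.9 CPM in control and at 15.3, 14.5 and 15.8 CPM in Dkk1_KO, a log2 fold change of -2.28 ± 0.20 (SE; edgeR adjusted p = 4.49e-05). The 2 groups were well apart. On the TPM scale Fzd3 also holds a noncoding transcript of 426 bases with at most 3.11% of its reads but up to 69.3% of its TPM, so the protein-coding transcript gives the level per length more directly: 4.09 ± 0.086 TPM in control and 0.711 ± 0.0248 TPM in Dkk1_KO (SD, n = 2 and 3). Fzd6 was at 41.0 and 36.2 CPM in control and at 18.3, 20.2 and 21.2 CPM in Dkk1_KO. Fzd6 had the smallest of the called changes, with a log2 fold change of -0.96 ± 0.26 (SE; edgeR adjusted p = 0.0162). That call was lost when control replicate 1, control replicate 2 or Dkk1_KO replicate 1 was left out (adjusted p = 0.0935, 0.0571 and 0.0597), with transcript length in the model (0.0626), with limma on TPM (0.0718) and with the Dkk1_KO libraries averaged (0.202).

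**Figure D3:**
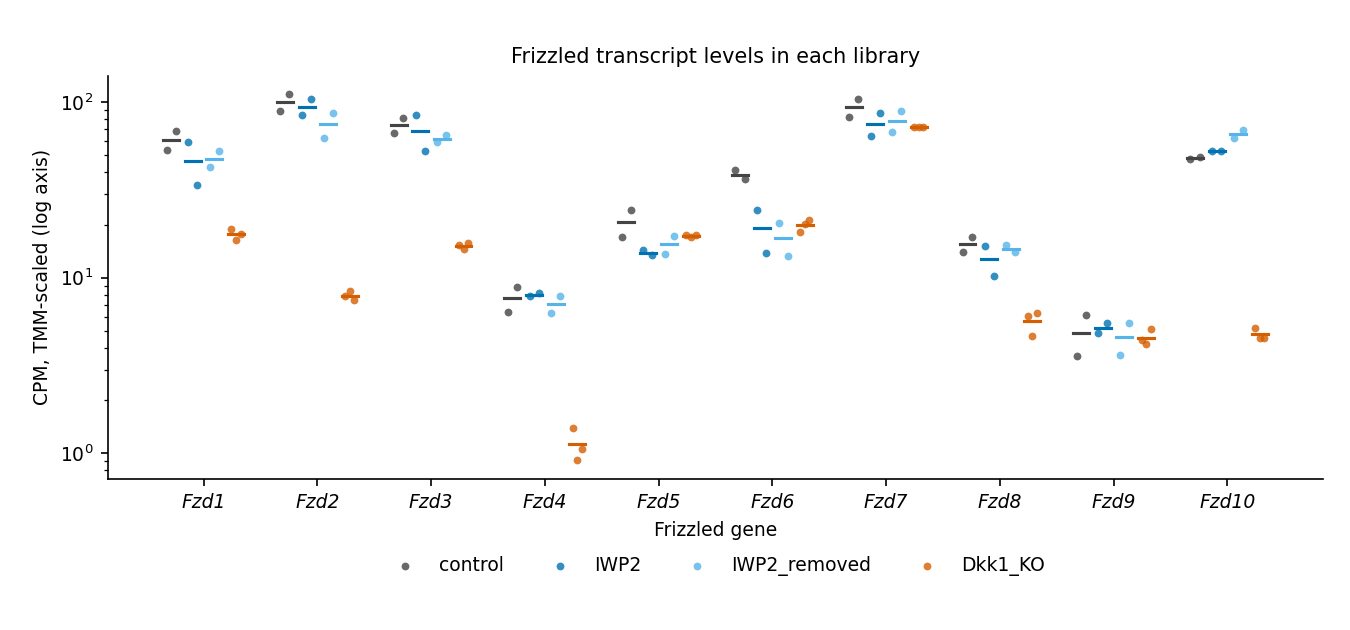
Points give the CPM (TMM-scaled, log axis) of each Frizzled gene in each library and short lines the group means, for control (n = 2), IWP2 (n = 2), IWP2_removed (n = 2) and Dkk1_KO (n = 3). Fzd2, Fzd10, Fzd4, Fzd3, Fzd1 and Fzd8 lie lower in Dkk1_KO than in every other library, Fzd6 lies highest in control, and Fzd5, Fzd7 and Fzd9 lie close together across groups.

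Dkk1_KO was also compared with both inhibitor lines to order the levels. Against IWP2, 6 Frizzled genes were lower in Dkk1_KO (Fzd1, Fzd2, Fzd3, Fzd4, Fzd8 and Fzd10) and 0 were higher, where 27.2% of all genes were called lower and 24.2% higher by edgeR. The same 6 genes were lower against IWP2_removed, with 0 higher, where 24.7% of all genes were called lower and 22.5% higher. At an unadjusted p below 0.05 the number of Frizzled genes higher was 0 in both comparisons, as it was with DESeq2 and limma. These comparisons use the same Dkk1_KO libraries as the one with control. For the 6 genes Dkk1_KO thus stood lowest, and no neighbours among control, IWP2 and IWP2_removed were called apart in edgeR. In CPM the Fzd10 libraries of those 3 groups did not overlap. Nor did those of Fzd1, Fzd2 and Fzd3 between IWP2_removed and control, or of Fzd4 between IWP2_removed and IWP2. These groups have 2 libraries each, and the share of all genes without overlap was not computed. For Fzd6 control stood highest, Dkk1_KO was the only group called below it in edgeR, and the other 3 groups were not called apart. The inhibitor lines were as low in Fzd6, with means of 19.9 CPM in Dkk1_KO (n = 3), 19.1 in IWP2 (n = 2) and 16.9 in IWP2_removed (n = 2). The Fzd6 log2 fold changes against control were -0.96, -1.01 and -1.19, so the call is not particular to Dkk1_KO in size. For Fzd5, Fzd7 and Fzd9 no neighbouring groups were called. With the Dkk1_KO libraries averaged to 1, Fzd1 and Fzd8 were no longer called against IWP2 (edgeR adjusted p = 0.0531 and 0.0865) or against IWP2_removed (0.0556 and 0.0625). Fzd3 lost its call against IWP2_removed with limma on log2(TPM + 1) (adjusted p = 0.0586).

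Continued inhibition of Wnt secretion was examined by comparing IWP2 with control. In edgeR 0 of the 10 Frizzled genes were higher and 0 lower, against 1.27% of all genes higher and 0.917% lower. At an unadjusted p below 0.05 there were 0 higher and 2 lower, Fzd6 and Fzd5, against 9.13% of all genes higher and 7.29% lower, and DESeq2 called 1 lower, Fzd6. Fzd6 was at 24.4 and 13.8 CPM in IWP2, below both control libraries, with a log2 fold change of -1.01 ± 0.29 (SE; edgeR adjusted p = 0.122). DESeq2 gave Fzd6 an adjusted p of 0.0335, in a test that called 2.63% of all genes lower. The adjusted p was 0.00686 in edgeR without the filter on low counts, where 1.47% were called lower. Fzd6 was not called with a length offset, with limma on TPM, with only these 2 groups in the edgeR model or without the Dkk1_KO libraries. Fzd5 was at 14.3 and 13.4 CPM in IWP2, also below both control libraries, with a log2 fold change of -0.58 ± 0.21 (SE; edgeR adjusted p = 0.205).

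The IWP2 libraries differed from each other in a set of Frizzled genes. Fzd1 was at 10.6 and 4.96 TPM in IWP2 replicates 1 and 2, Fzd8 at 3.49 and 1.92 TPM, and the protein-coding transcripts of Fzd3 at 4.74 and 2.43 TPM and of Fzd6 at 4.40 and 2.08 TPM. On the TPM scale Fzd2 (17.5 and 17.7), Fzd7 (10.6 and 11.7) and Fzd10 (12.5 and 10.1) were nearer each other in the same libraries. In CPM, the scale of the tests, Fzd2 was at 84.2 and 104, Fzd7 at 64.0 and 86.0 and Fzd10 at 52.8 and 52.3. Fzd2 and Fzd7 were thus higher in replicate 2 in CPM, while Fzd1 was lower there (58.9 and 33.7 CPM). The fibroblast markers summed to 1357 TPM in replicate 1 and 733 TPM in replicate 2, and the epiblast markers to 689 and 1373 TPM. Replicate 1 also had the higher fibroblast sum in control (1888 and 1417 TPM) and IWP2_removed (1635 and 1050 TPM). The epiblast sums there were 945 and 730.3 TPM in control and 925 and 1055 TPM in IWP2_removed. The part of these markers in the Frizzled levels was not tested. Without IWP2 replicate 1, the edgeR log2 fold change in IWP2 against control was -0.86 for Fzd1 and -1.49 for Fzd6. That fit assumed the remaining IWP2 library to vary like the other groups.

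After removal of IWP2, 0 Frizzled genes were higher and 0 lower than in control by edgeR, against 0.669% of all genes higher and 0.586% lower. This comparison and the one before share the control libraries. At an unadjusted p below 0.05 there were 1 higher, Fzd10, and 1 lower, Fzd6, against 6.16% of all genes higher and 5.74% lower, and DESeq2 called only Fzd6. Fzd6 was at 20.5 and 13.3 CPM in IWP2_removed, with a log2 fold change of -1.19 ± 0.29 (SE; edgeR adjusted p = 0.111). Both libraries were below both control libraries. The adjusted p of Fzd6 was 0.0105 with DESeq2, which called 1.83% of all genes lower, and 0.00210 in edgeR without the filter (1.01% called lower). Its log2 fold change was -1.20 or -1.19 when IWP2 replicate 1 or 2 was left out of the edgeR model. Fzd6 was not called with a length offset, with limma on TPM, with only these 2 groups in the edgeR model or without the Dkk1_KO libraries. Fzd10 was at 62.6 and 68.9 CPM, above both control libraries (47.3 and 48.7 CPM) and both IWP2 libraries (52.8 and 52.3 CPM). Its log2 fold change was 0.45 ± 0.13 (SE; edgeR adjusted p = 0.165) against control.

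IWP2_removed and IWP2 were compared directly as well. In edgeR 0 Frizzled genes were higher and 0 lower, against 0.0387% of all genes higher and 0.0221% lower. DESeq2 and limma also called 0, and at an unadjusted p below 0.05 there were 1 higher, Fzd10 (log2 fold change 0.32 ± 0.13, SE; edgeR adjusted p = 0.446), and 0 lower, against 4.08% of all genes higher and 5.61% lower. The intervals of the other 9 genes all included 0, the widest being that of Fzd9, from -0.95 to 0.60.

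**Figure D4:**
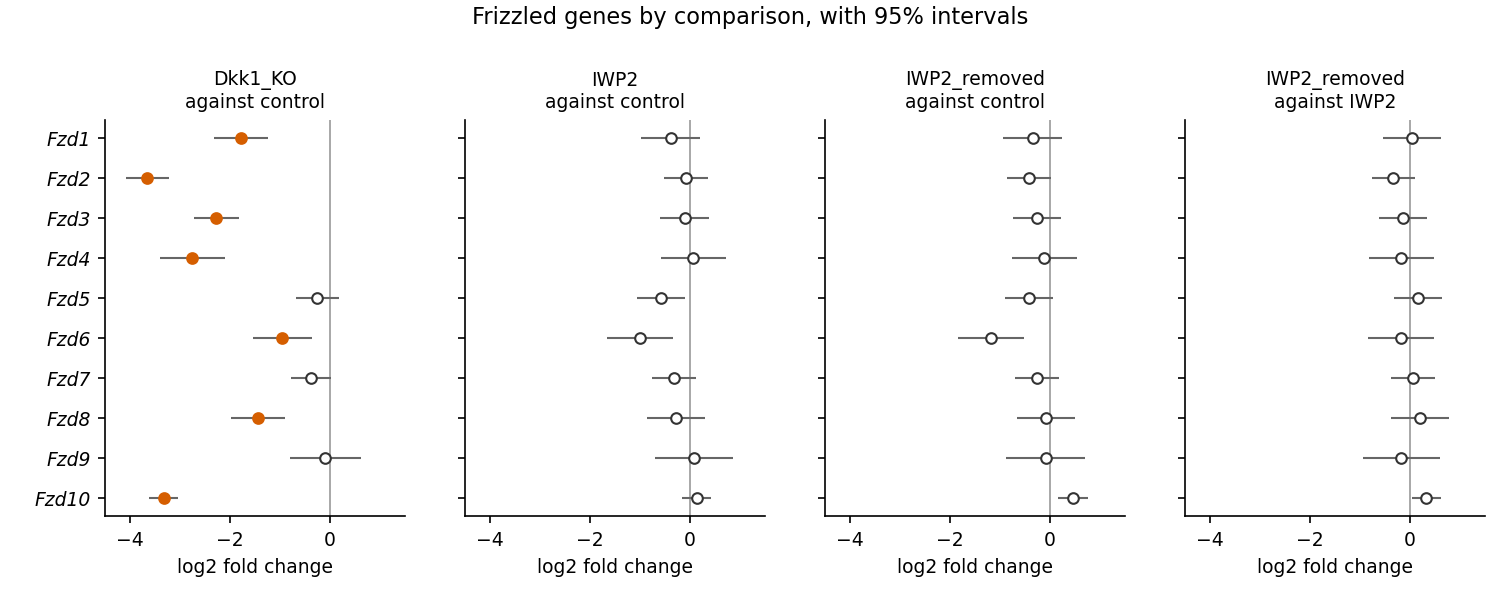
Log2 fold changes of the Frizzled genes in 4 comparisons, with 95% intervals from the edgeR model. Filled points are called at an adjusted p below 0.05 and open points are not. The 7 called genes are all lower in Dkk1_KO than in control, from -3.66 for Fzd2 to -0.96 for Fzd6, and 0 are called in the other 3 panels.

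Genes that work with the Frizzled receptors were counted in the same edgeR comparison of Dkk1_KO with control, where 21.3% of all genes were called higher and 23.0% lower. Counts near those shares, such as 1 higher and 2 lower of 9 Dishevelled and destruction complex genes, are not results about the list. Of 6 co-receptors and alternative Wnt receptors tested, 2 rose and 3 fell. Ryk, a kinase-dead Wnt receptor, rose from 109 to 197 CPM, and Lrp5 rose from 102 to 177 CPM. Ror1 fell from 13.8 to 1.70 CPM and Ror2, a receptor of Wnt5a, from 29.9 to 11.6 CPM. Lrp6, the other main co-receptor, was at 119.9 and 114 CPM and was not called. The adjusted p-values of the called genes named were between 0.000105 (Ror1) and 0.00384 (Lrp5).

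Of 4 partners of Fzd4 and norrin, 2 fell and 0 rose. Tspan12, a tetraspanin that enhances norrin signalling through Fzd4, fell from 14.5 to 3.28 CPM, and Ndp, which encodes norrin, from 1.65 to 0.0701 CPM (edgeR adjusted p = 0.000949 and 0.00255). Of 7 tested genes whose products carry a Frizzled-like cysteine-rich domain, 6 fell and 0 rose. Sfrp1, a secreted Wnt antagonist, fell from 123 to 16.2 CPM, Smo, the Hedgehog signal transducer, from 149.5 to 49.5 CPM, and Sfrp4 from 1.73 to 0.217 CPM. Among 9 genes of Frizzled turnover and the R-spondin axis 5 fell and 0 rose, led by Lgr5 (3.65 to 0.455 CPM), a receptor for R-spondins. Rnf43 and Znrf3, the ligases that remove Frizzled proteins from the cell surface, were not called, with means of 3.32 and 20.1 CPM in control and 2.06 and 17.8 CPM in Dkk1_KO.

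Of 9 Dishevelled and destruction complex genes 1 rose and 2 fell: Dvl1 rose from 51.0 to 76.8 CPM, Ctnnb1, encoding beta-catenin, fell from 1331 to 903 CPM, and Gsk3b fell from 114 to 74.6 CPM. All 9 planar cell polarity genes were called, 7 lower and 2 higher. Celsr2 fell from 111 to 10.2 CPM, Celsr1 from 160.0 to 16.0 CPM and Vangl2 from 97.2 to 32.3 CPM, while Vangl1 rose from 48.0 to 134 CPM and Prickle3 from 4.47 to 14.4 CPM. Among 17 Wnt ligands tested 3 rose and 7 fell. Wnt7b rose from 2.67 to 389 CPM and Wnt6 from 0.707 to 76.8 CPM, and Wnt8a fell from 71.9 to 0.0725 CPM. Of 5 Dkk and Kremen genes Kremen1, a receptor for Dkk1, rose from 50.8 to 107 CPM, Dkk1 itself fell, and the others were not called. Of 14 genes known as beta-catenin targets 2 rose and 8 fell, among them Sp8 (25.6 to 0.0469 CPM), Nkd1 (30.5 to 4.43 CPM) and Lef1 (9.64 to 0.578 CPM). Median log2 fold changes of these lists ran from -2.80 (cysteine-rich domain proteins) to -0.05 (Dishevelled and destruction complex).

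**Figure D5:**
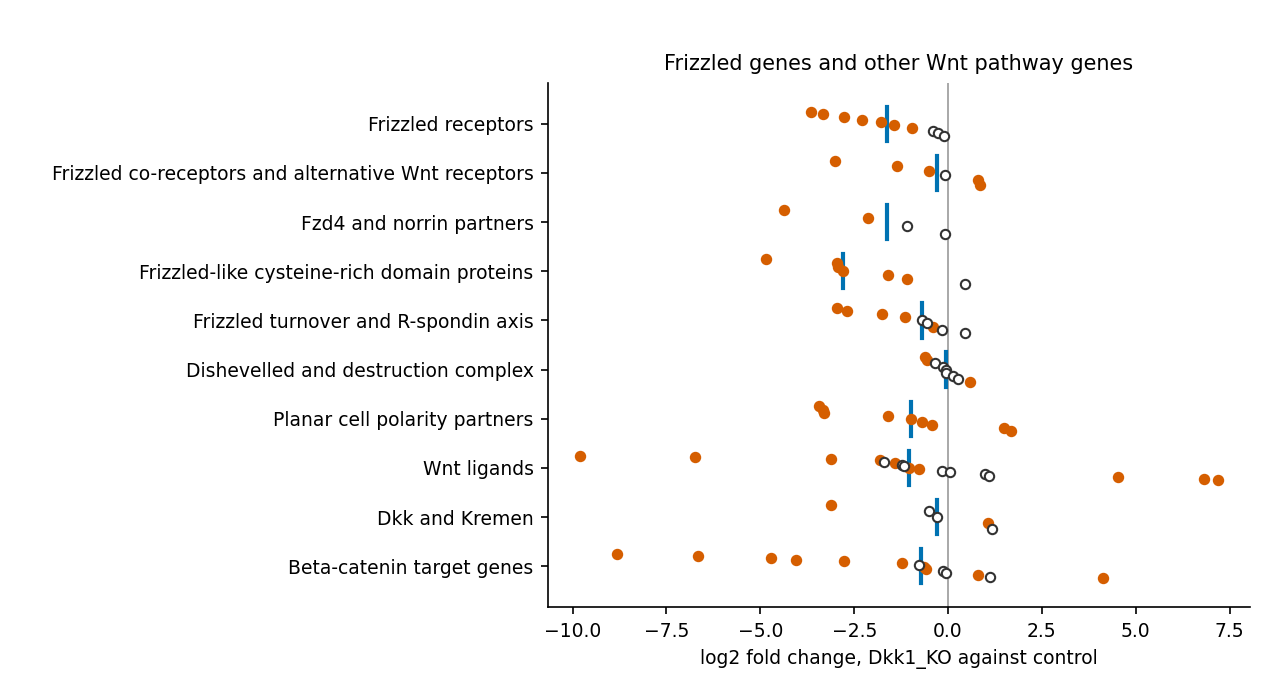
Log2 fold changes in Dkk1_KO against control (x axis) for the tested genes of each list (rows). Filled points are called at an edgeR adjusted p below 0.05, open points are not, and vertical bars are list medians. The Frizzled median is -1.62 and that of the cysteine-rich domain proteins -2.80, while Wnt ligands spread to both sides; points beyond 6 on either side have few reads in 1 group and depend on the fit.

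In the comparisons among control, IWP2 and IWP2_removed edgeR called 0 genes of these 9 lists in either direction. At an unadjusted p below 0.05 the largest counts were 3 of 9 planar cell polarity genes and 3 of 5 Dkk and Kremen genes in IWP2 against control, and 4 of 17 Wnt ligands in IWP2_removed against control. The share of all genes at that p, in either direction, was 16.4% in IWP2 against control, 11.9% in IWP2_removed against control and 9.69% in IWP2_removed against IWP2. Among the most abundant partners, Ptk7 was at 66.0 TPM in control, 47.9 in IWP2 and 64.4 in IWP2_removed, and Ctnnb1 at 847, 743 and 709 TPM.

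Genes with the pattern most like the 3 most abundant Frizzled genes were found by Pearson's r of log2(TPM + 1) over the 9 libraries among 10172 genes with a mean of at least 5 TPM. Libraries of 1 group share their line and are not independent points, so r is given as a description. For Fzd2 they were Metrn (r = 0.9973), Rragb (0.9968) and Pipox (0.9968), and 572 genes had r above 0.95. For Fzd10 they were Ank2 (0.9966), Lpl (0.9960) and Hmgn5 (0.9959), with 632 genes above 0.95. For Fzd7 the closest were Gm12671 (0.9762), Nmral1 (0.9730) and Usp28 (0.9593), and only 5 genes passed 0.95. In the 6 libraries without Dkk1_KO the r of these genes was 0.82 to 0.94 with Fzd2, 0.62 to 0.88 with Fzd10 and 0.96 to 0.98 with Fzd7.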

How the data were processed

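The authors deposited 1 table per library with an estimated count and a TPM value for each of 133618 transcripts, per the file headers, and Salmon, edgeR and DESeq2 are listed, with no version, in the submitters' processing notes. The effective lengths in the deposited tables were used for a length offset only. Salmon's options and its transcript build are not given in the sources used here. Of the transcripts 133399 matched GENCODE vM21 (GRCm38) by stable identifier, 2166 of them with another version number, Fzd8 among these, and the 219 unmatched held 0.117% to 0.161% of the reads. The Fzd8 transcript in the deposited values had 3346 bases, where the annotated gene of 1 exon spans 5974. Reads from the rest may thus be missing from the Fzd8 level. Estimated counts were summed per gene and rounded, and TPM was summed.

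Tests used edgeR 4.0.16 under R 4.3.3 (quasi-likelihood, TMM, filterByExpr, a mean per group over 9 libraries, no replicate term), with Benjamini-Hochberg adjustment over 18096 genes and calls at an adjusted p below 0.05. All 10 Frizzled genes passed the filter. The common dispersion of 0.0524 corresponds to a biological coefficient of variation near 0.229. Intervals are 95% intervals of the model. The alternatives were DESeq2 1.42.0, limma 3.58.1 on log2(TPM + 1) or log2(TPM + 0.1), other scalings and filters, a length offset, fewer groups, averaged Dkk1_KO libraries, replicate blocks and each library left out. The fit was tested on simulated data with known changes. The simulation gave every group the same spread, set below the common dispersion fitted here. It thus does not bear on the unlike spread of the replicates or on the fit at the spread of these data. Coding sequences were aligned end to end.

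All Frizzled genes are named. Of each other list up to 3 called genes with the smallest adjusted p are named, or up to 2 with the highest TPM where none was called. Lrp5, Lrp6, Rnf43, Znrf3, Vangl1 and Prickle3 were added after their values were seen. The members and lists were chosen with earlier results of these data known. SB431542, named in the treatment protocol, belongs to none of these groups. Protein sequences were not used here.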

Additional observations from a re-analysis of the deposited data

How the results depend on the processing

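Of 1092 alternative values of 52 log2 fold changes of Frizzled genes, 1041 kept their direction and their side of the threshold, 13 lost a call, 11 gained one and 27 changed sign, none of the latter belonging to a call. In the 2 comparisons of Dkk1_KO with the inhibitor lines only called genes were followed. The number of Frizzled genes lower in Dkk1_KO than control was 6 to 7 with a library left out, 6 with a length offset, 5 with the Dkk1_KO libraries averaged and 8 with only 2 groups fitted. The number lower in IWP2 than control was 1 with DESeq2, 1 without a filter and 0 to 2 with a library left out. The number lower in IWP2_removed than control was 1, 1 and 0 to 1. The cause was not tested. Over all genes, 3509 of 18096 were called lower in Dkk1_KO than control with a length offset. With only these 2 groups fitted 5141 of 16848 were called lower. Signs changed for Fzd3 in IWP2 against control with a length offset (0.15) and for Fzd4 there with limma (-0.02 and -0.03). With a library left out they changed in IWP2 against control for Fzd2 (-0.26 to 0.09), Fzd3 (-0.50 to 0.18), Fzd4 (-0.16 to 0.34) and Fzd9 (-0.26 to 0.56), in IWP2_removed against control for Fzd4 (-0.35 to 0.15), Fzd8 (-0.24 to 0.08) and Fzd9 (-0.45 to 0.37), in Dkk1_KO against control for Fzd5 (-0.49 to 0.05) and Fzd9 (-0.43 to 0.38), and in IWP2_removed against IWP2 for Fzd1 (-0.30 to 0.50), Fzd3 (-0.44 to 0.23), Fzd5 (-0.02 to 0.30), Fzd6 (-0.54 to 0.29), Fzd7 (-0.16 to 0.29), Fzd8 (-0.05 to 0.52) and Fzd9 (-0.51 to 0.08).

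Counts over all genes moved more. In IWP2 against control 230 genes were higher and 166 lower, against 646 and 421 with DESeq2, 685 and 535 without a filter, 80 and 89 with a length offset and 0 and 1 with only 2 groups. For IWP2_removed against control 121 and 106 became 345 and 312, 362 and 370, 36 and 43, and 5 and 5. With the Dkk1_KO libraries averaged 3857 and 4161 calls against control became 1355 and 1369. With limma on log2(TPM + 1) they were 2550 and 3937, and the median of all genes moved to -0.13 (-0.21 with a pseudocount of 0.1). Deviations of same-numbered libraries correlated at 0.41 to 0.60 among control, IWP2 and IWP2_removed and at -0.08 to -0.03 with Dkk1_KO. Same-numbered libraries thus deviated together in those 3 groups, with 2 libraries each, but the labels do not say what a number marks. With that number as a replicate block the all-gene calls of IWP2_removed against control were 71 higher and 64 lower in place of 121 and 106, and those of IWP2_removed against IWP2 were 2 and 0 in place of 7 and 4. The Frizzled genes lower in Dkk1_KO than control then numbered 7, those lower against either inhibitor line 6, and 0 were called otherwise. Estimated reads limit Fzd4 and Fzd9 most, at 12 to 20 and 55 to 72 reads per Dkk1_KO library.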
